A study of Rattus norvegicus with 6 samples.

Results

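Semaphorins are guidance proteins that repel or attract growing axons, endothelial cells and other migrating cells. The 10 genes described here are Sema3a, Sema3b, Sema3c, Sema3d, Sema3e, Sema3f, Sema5a, Sema6a, Sema6d and Sema7a, found by symbol among the 20264 genes of the combined count table. They were measured by RNA-seq of poly-A selected RNA in nucleus pulposus cells (NPCs), the cells of the gelatinous core of the intervertebral disc, taken from the tail discs of male wild-type Sprague-Dawley rats and grown as primary cultures. All 10 genes had at least 1 read, and 9 of them passed the filter on low counts that left 11426 genes for the test. Sema6d did not pass it. The list was drawn up with the changes between the 2 groups already known, so the log2 fold changes (log2FC) of its members are given as a description, with their standard errors (SE), and no test is drawn from them.

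Each of the 6 libraries came from cells given tert-butyl hydroperoxide (TBHP), an oxidant used to bring on senescence. In the TBHP group (T1, T2 and T3), nothing else was added, and in the TBHP+FGF21 group (F1, F2 and F3), recombinant FGF21, a secreted fibroblast growth factor, was given together with TBHP. The comparison asks how FGF21 alters the transcripts of oxidant-treated NPCs. There was no library without TBHP, so an effect of TBHP itself could not be seen. The treatment label of F2 names FGF22 and that of F3 names FGF23, whereas the protocol and the design text give FGF21 for the whole group, which was followed here. The age of the rats, the number of animals behind a library, and the doses and times used for these libraries are not given in the sources used here.

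Semaphorins act through plexins, large receptors of the cell surface whose activation alters small GTPases and so the actin skeleton and cell adhesion. Most secreted class 3 semaphorins bind a neuropilin, which passes the signal to a plexin, while the membrane-bound classes bind plexins directly, and Sema7a, which is tied to the membrane by a lipid anchor, also acts through an integrin. The healthy disc core holds almost no nerves or vessels, and some class 3 semaphorins, though not all, are known for repelling nerves or vessels.

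The depth of the libraries in the combined table was 18277724.5 to 22426186 counts. A gene with no reads could then have up to 3 counts, or 0.131 to 0.168 CPM. This limit covers counting error only. Levels are CPM (counts scaled to a common library size) after edgeR's TMM scaling, not divided by transcript length, so they compare libraries for a gene and not genes with each other. Between the groups, 1 of 11426 genes (0.00875%), Sirt1, had an adjusted p under 0.05 by edgeR's quasi-likelihood test. Its 6 counts stood in no row of the per-sample files, whereas those of 10448 of the 10458 genes with at least 20 counts in every library did, as did those of all 10 semaphorins, and with those files no gene was called, against 1082 at an unadjusted p under 0.05. F2 stood apart from its group. Across genes, it had a mean Spearman correlation of 0.996 with the TBHP libraries and of 0.990 with F1 and F3, and without it 867 of 11559 genes were called. T3 was also slightly nearer to the other group, at 0.994 with the TBHP+FGF21 libraries and 0.993 with T1 and T2, and without it no gene was called, against 1771 at an unadjusted p under 0.05 by edgeR. Whether the labels of these libraries are right could not be settled here, and a wrong label would alter every mean and log2FC below. Results are given with and without F2, which leaves 2 libraries in the TBHP+FGF21 group. As F2 was singled out for its likeness to the TBHP group, which bears on the outcome itself, the values and adjusted p without it are descriptions and no test of FGF21.

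The labelled cell type was checked against its markers. Of 17 listed nucleus pulposus markers, 13 were in the table, and Tbxt, Noto and Shh, which mark the notochordal form of these cells, had no read in any library. Acan, the proteoglycan of the disc matrix, was at 2506 to 4355 CPM, and Col1a1, the collagen of fibroblasts and the outer annulus, at 27868 to 42463 CPM. The summed level of the nucleus pulposus markers was 2811 to 3264 CPM in the TBHP group and 3183 to 4857 CPM in the TBHP+FGF21 group, most of it Acan. Tnmd, of 10 markers of fibroblasts and annulus fibrosus, had no read. The summed level of this list was 42856 to 47387 CPM in the TBHP group and 32530 to 44812 CPM in the TBHP+FGF21 group, most of it Col1a1. The 9 tested markers of this list moved both ways, with 5 log2FCs above and 4 below 0 and a median of 0.06. At an unadjusted p under 0.05 by edgeR, 1 was higher (Pdgfra) and 1 lower (Scx), beside 4.63% and 4.29% of all genes tested. Among markers of other cell types, Cdh5, Kdr, Tie1 and Emcn (endothelial cells), Rbfox3 and Sox10 (neurons and Schwann cells), and Ptprc and Adgre1 (leukocytes and macrophages) had no read. The summed levels in the TBHP and TBHP+FGF21 groups were 8.10 to 10.8 and 7.11 to 10.7 CPM for 7 endothelial markers, 121 to 139 and 115 to 146 CPM for 9 neural markers, and 32.2 to 38.2 and 26.8 to 33.0 CPM for 8 leukocyte markers. In every library, Cldn5 made up most of the endothelial sum, S100b most of the neural sum and Cd14 most of the leukocyte sum. These sums thus rest mainly on single genes and do not show that such cells were present. Col1a2, the partner of Col1a1 in type I collagen, was at 0.391 to 0.771 CPM, so a low count in this table does not show that a gene was silent. The 9 tested nucleus pulposus markers moved both ways, with 4 log2FCs above and 5 below 0 and a median of -0.01. Pax1, a transcription factor of the disc, was at 348 CPM in F1 and 385 CPM in F3, and at 211 to 229 CPM in the other 4 libraries, whereas Krt8, a keratin of notochordal cells, was at 3.52 to 4.27 CPM in the TBHP group and at 2.31 to 3.17 CPM in the TBHP+FGF21 group. The log2FCs of Cd24 (-0.55), Car3 (-0.34), Col2a1 (-0.26) and Cdh2 (-0.01) were also negative. Of these, Cd24, Car3 and Col2a1 had low levels, with TBHP means of 1.86, 1.99 and 0.60 CPM. The log2FCs of Sox9 (0.56), Pax1 (0.54), Acan (0.40) and Foxf1 (0.27) were positive. At an unadjusted p under 0.05 by edgeR, 3 of these markers were higher and 0 lower, beside 4.63% and 4.29% of all genes tested. The part of these markers in the semaphorin levels was not tested, and in bulk RNA, fewer cells of a type and less RNA per cell cannot be told apart.

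The positions of the genes bear on how their reads can be told apart. In RefSeq's order of genes on rat chromosome 4 (GRCr8, used for names and order only), Sema3c, Sema3e, Sema3a and Sema3d lie in this order, with 4 other protein-coding genes between Sema3c and Sema3e, 12 between Sema3e and Sema3a and none between Sema3a and Sema3d. Sema3b and Sema3f lie on chromosome 8 with 3 genes between them (Gnai2, Slc38a3 and Gnat1), and Sema7a is on the same chromosome. Sema5a is on chromosome 2, Sema6d on chromosome 3 and Sema6a on chromosome 18. Sema5a and Sema6a each overlap 1 predicted protein-coding gene there, LOC134485782 and LOC120098258. The reads of the tested members were split almost evenly over the strand columns of the per-sample files, with 47.1% (Sema3d) to 54.7% (Sema3a) in column 4, so reads of a gene and of any antisense partner could not be told apart.

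Upstream sequence was available for 6 of the 10 genes in RefSeq's promoter table (GRCr8). The 250 bases before the start are shown for Sema3d, the direct neighbour of Sema3a, and Sema7a. Only windows on chromosomes 4 and 8 that lie wholly outside the annotated span of their own gene are printed. Overlap of the windows with other genes was not checked. Capitals mark GGGCGG, the box bound by Sp and KLF factors, and CCGGAA, the core bound by ETS factors, each on either strand.
Sema3d, chr4:23460972-23461221, minus strand: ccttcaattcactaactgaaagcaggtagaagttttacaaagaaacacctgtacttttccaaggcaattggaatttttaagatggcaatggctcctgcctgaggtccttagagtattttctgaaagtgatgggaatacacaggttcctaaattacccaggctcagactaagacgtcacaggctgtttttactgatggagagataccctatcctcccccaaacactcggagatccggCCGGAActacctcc
Sema7a, chr8:67244068-67244317, plus strand: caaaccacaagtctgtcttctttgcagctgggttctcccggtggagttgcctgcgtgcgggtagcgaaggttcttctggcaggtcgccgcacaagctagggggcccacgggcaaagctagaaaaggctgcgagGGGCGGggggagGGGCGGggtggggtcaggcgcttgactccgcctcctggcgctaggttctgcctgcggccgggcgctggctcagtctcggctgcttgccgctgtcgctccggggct
The window of Sema6a on chromosome 18, which also lies outside the span of its own gene and is not printed, has 10 CpG. It has no match to GGGCGG or CCGGAA. Sema3d has 4 CpG and 1 match to CCGGAA, and Sema7a has 20 CpG and 2 matches to GGGCGG. The windows of Sema3c, Sema3e and Sema6d lie partly or wholly inside the span of their own gene. Sema3c has 0 CpG and no match, Sema3e has 13 CpG and 2 matches to GGGCGG, and Sema6d has 23 CpG and 4 matches to GGGCGG. The median over all 33469 promoters of the table is 5 CpG. GGGCGG is in 30.5% and CCGGAA in 12.6% of all these windows, and TGACTCA (4.05% of all) and TATAAA (12.9%), also searched on both strands, are in none of the windows of the 6 genes. These matches describe the letters only. Sema3d and Sema7a differed little between the groups, as the levels below show.

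Sema6a, a transmembrane semaphorin that binds A-type plexins on neighbouring cells, was at 12.3, 11.7 and 15.6 CPM in T1, T2 and T3, and at 21.9, 16.7 and 21.6 CPM in F1, F2 and F3. All 3 TBHP+FGF21 libraries were above all 3 TBHP libraries, and F2 was the nearest of them to the TBHP group, 1.26 times its mean against 1.66 times for F1 and 1.63 times for F3. The means were 13.2 ± 2.08 and 20.1 ± 2.95 CPM (SD, n = 3), for a log2FC of 0.60 (SE 0.15), and 0.73 (SE 0.14) without F2. These levels rest on 221 to 495 reads per library. Sema6a was the only tested member whose groups did not overlap. Across all genes, the TBHP+FGF21 libraries were all higher in 4.9% of those tested and all lower in 5%.

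**Figure D1:**
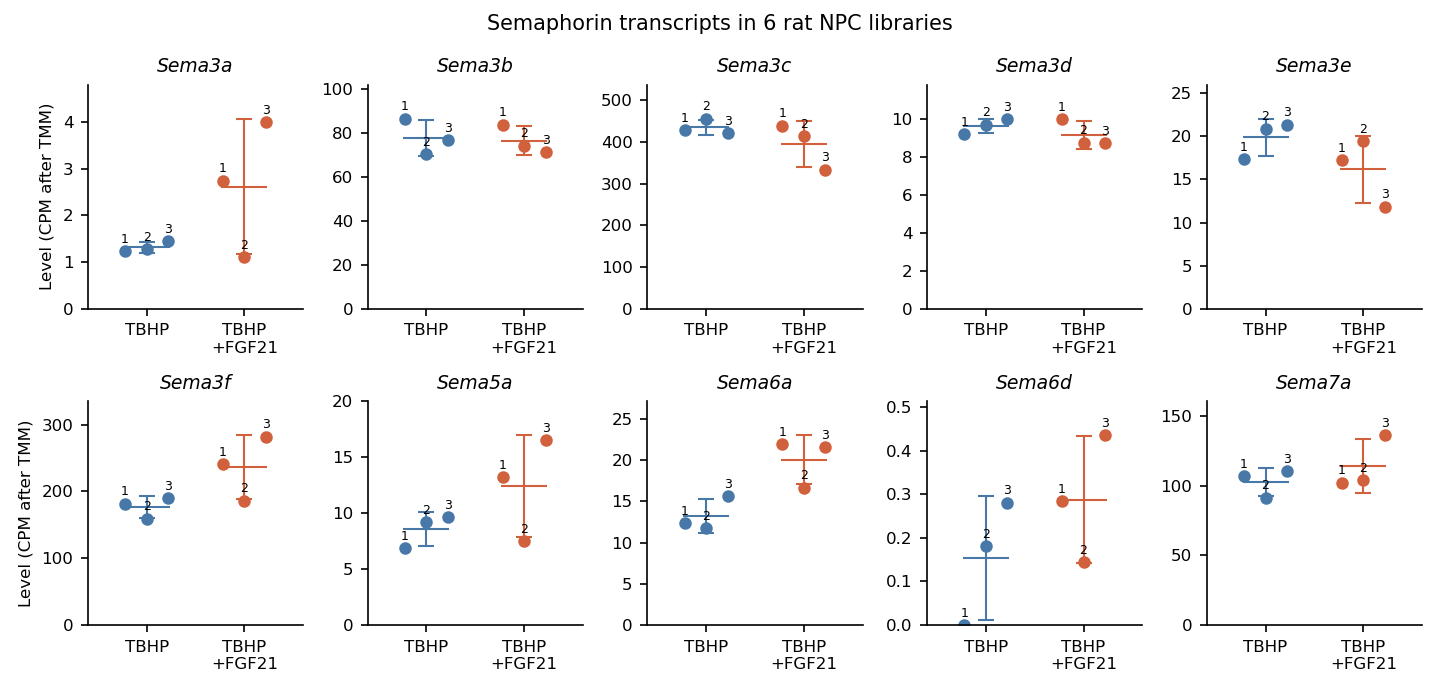
Levels of the 10 semaphorins in CPM after TMM scaling (vertical axes from 0, a scale of its own for each gene) in the TBHP group (blue) and the TBHP+FGF21 group (orange). Numbered points are replicates 1 to 3, and the horizontal lines and bars are the mean and SD (n = 3). For Sema3a, Sema3f and Sema5a, points 1 and 3 of the TBHP+FGF21 group lie above the TBHP group and point 2 does not, while for Sema6a all 3 points do.

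Sema3a, the secreted repellent that signals through neuropilin-1, was at 1.23, 1.27 and 1.45 CPM in T1, T2 and T3, and at 2.75, 1.10 and 4.01 CPM in F1, F2 and F3. F1 and F3 were 2.09 and 3.04 times the TBHP mean, and F2 was below every TBHP library. The means were 1.32 ± 0.12 and 2.62 ± 1.46 CPM (SD, n = 3), for a log2FC of 0.99 (SE 0.39) with all libraries and 1.37 (SE 0.27) without F2. Sema3a had few reads, 22, 28 and 31 in the TBHP group and 58, 23 and 92 in the TBHP+FGF21 group.

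Sema3f, the secreted ligand of neuropilin-2, had 182, 159 and 190 CPM in the TBHP group, and 241, 186 and 282 CPM in F1, F2 and F3. F1 and F3 were above the TBHP group and F2 was within its range. The means were 177 ± 15.9 and 236 ± 48.0 CPM (SD, n = 3), for a log2FC of 0.42 (SE 0.14), and 0.57 (SE 0.11) without F2. Sema5a, a transmembrane semaphorin with thrombospondin repeats, was at 6.87, 9.20 and 9.66 CPM in the TBHP group, and at 13.2, 7.51 and 16.5 CPM in F1, F2 and F3. The order of the libraries was that of Sema3a within the TBHP+FGF21 group, with F3 highest and F2 inside the TBHP range. The means were 8.58 ± 1.495 and 12.4 ± 4.56 CPM (SD, n = 3), for a log2FC of 0.53 (SE 0.24), and 0.80 (SE 0.17) without F2.

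Sema3e, a secreted semaphorin that binds plexin-D1 without a neuropilin, had the largest negative value. It was at 17.4, 20.9 and 21.4 CPM in the TBHP group, and at 17.2, 19.4 and 11.9 CPM in F1, F2 and F3. F1 lay just below T1, F2 was within the TBHP range, and F3 alone was well below it at 0.60 times the TBHP mean. The means were 19.9 ± 2.19 and 16.2 ± 3.90 CPM (SD, n = 3), for a log2FC of -0.30 (SE 0.17), -0.45 (SE 0.16) without F2 and -0.11 without F3.

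Sema3c, a secreted semaphorin of heart and vessel development, took 37.6% to 55.0% of the reads of the 10 genes. It was at 429, 456 and 421 CPM in the TBHP group, and at 439, 414 and 334 CPM in F1, F2 and F3. F3 was again the lowest library, and F1 lay inside the TBHP range. The means were 435 ± 18.5 and 396 ± 55.3 CPM (SD, n = 3), for a log2FC of -0.14 (SE 0.11), and -0.02 without F3.

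Sema7a, the lipid-anchored semaphorin that acts on integrins of immune and matrix-bound cells, was at 107, 91.6 and 111 CPM in the TBHP group, and at 102, 104 and 136 CPM in F1, F2 and F3. F3 alone was above the TBHP range. The means were 103 ± 10.1 and 114 ± 19.3 CPM (SD, n = 3), for a log2FC of 0.15 (SE 0.12), and 0.0083 without F3. Leaving out F3 thus brought Sema7a and Sema3c close to 0 without a change of sign.

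Sema3b and Sema3d, both secreted class 3 semaphorins, differed least. Sema3b was at 86.4, 70.1 and 76.6 CPM in the TBHP group, and at 83.6, 74.1 and 71.2 CPM in F1, F2 and F3. All 3 libraries of the TBHP+FGF21 group lay within the TBHP range. The means were 77.7 ± 8.18 and 76.3 ± 6.48 CPM (SD, n = 3), for a log2FC of -0.03 (SE 0.11), changing sign without T1 (0.06), F2 (0.0043) or F3 (0.03). Sema3d was at 9.22, 9.70 and 9.99 CPM in the TBHP group, and at 9.997, 8.76 and 8.72 CPM in F1, F2 and F3. F1 was level with T3, and F2 and F3 were below T1. The means were 9.63 ± 0.39 and 9.16 ± 0.73 CPM (SD, n = 3), for a log2FC of -0.07 (SE 0.13). Sema3a and Sema3d are direct neighbours on chromosome 4, and F1 and F3 were 2.09 and 3.04 times the TBHP mean for Sema3a against 1.04 and 0.905 times for Sema3d.

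Sema6d, the other class 6 member, was at the limit of detection. It had 0, 4 and 6 reads in the TBHP group and 6, 3 and 10 reads in the TBHP+FGF21 group. The 0 of T1 allows up to 0.168 CPM, and the other TBHP libraries were at 0.181 and 0.281 CPM and the TBHP+FGF21 libraries at 0.284, 0.144 and 0.436 CPM. A difference was not detectable at this depth.

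Of the 9 tested members, 5 had a positive and 4 a negative log2FC, with a median of 0.15 against -0.0052 over all genes tested. The median was 0.03 without F3 and 0.07 without T2. At an unadjusted p under 0.05 there were 4 members, all higher (Sema3a, Sema3f, Sema5a and Sema6a), beside 4.63% of all genes tested called higher and 4.29% called lower. At an adjusted p under 0.05 (edgeR, Benjamini-Hochberg) there were 0 members, against 0.00875%. At the study's threshold, which asks for a log2FC beyond 1 in size and an unadjusted p below 0.05, there were 0 members, against 0.534%, and 1, Sema3a, without F2 or without T3. Without F2, 4 of 9 were called by edgeR at the adjusted threshold, the same genes as at the unadjusted p with all libraries, against 3.78% called higher and 3.72% called lower. Since the list was chosen on this contrast, nothing is read from these counts.

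**Figure D2:**
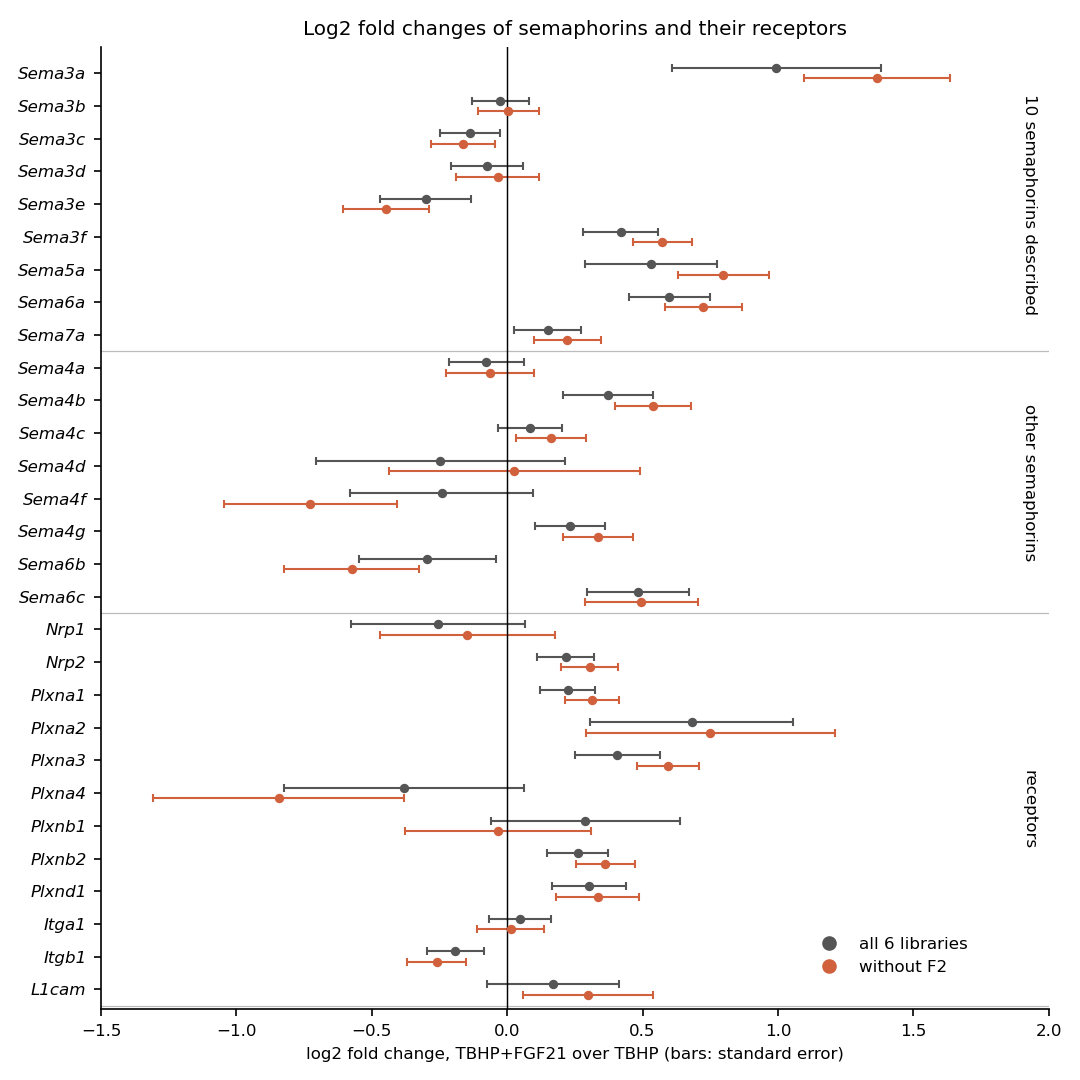
Log2FCs of TBHP+FGF21 over TBHP (horizontal axis) with bars of 1 standard error, for the 9 tested members, 8 other semaphorins and 12 receptors, from all 6 libraries (grey) and without F2 (orange). Sema3a, Sema3f, Sema5a and Sema6a lie to the right of 0, and without F2 each moves further right.

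The level of the 10 genes together was 830 to 856 CPM in the TBHP group, and 931, 832 and 886 CPM in F1, F2 and F3. F1 and F3 were above the TBHP range and F2 was inside it. Within the TBHP group the 9 tested members were close together, with an SD of 4.04% (Sema3d) to 17.4% (Sema5a) of the mean. Within the TBHP+FGF21 group, F2 was inside the TBHP range for Sema3b, Sema3e, Sema3f, Sema5a and Sema7a, below it for Sema3a, Sema3c and Sema3d, and above it for Sema6a.

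The single libraries weighed unequally on the members. When libraries were left out singly, the log2FC of Sema6a stayed between 0.52 (without T2) and 0.74 (without T3). That of Sema3a ran from 0.55 without F3 to 1.37 without F2, that of Sema5a from 0.28 to 0.80, and that of Sema3f from 0.28 to 0.57, again without F3 and without F2. None of these 4 changed sign. With other counts, scalings, tools and filters and with the replicate number as a block, the log2FC of Sema6a lay between 0.45 and 0.75, that of Sema3a between 0.76 and 1.21, that of Sema3f between 0.39 and 0.46, and that of Sema5a between 0.47 and 0.60. Without T3, the log2FCs were 1.08 for Sema3a, 0.48 for Sema3f, 0.63 for Sema5a and 0.74 for Sema6a. Leaving out F2 was the only omission after which any member had an adjusted p under 0.05 by edgeR.

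**Figure D3:**
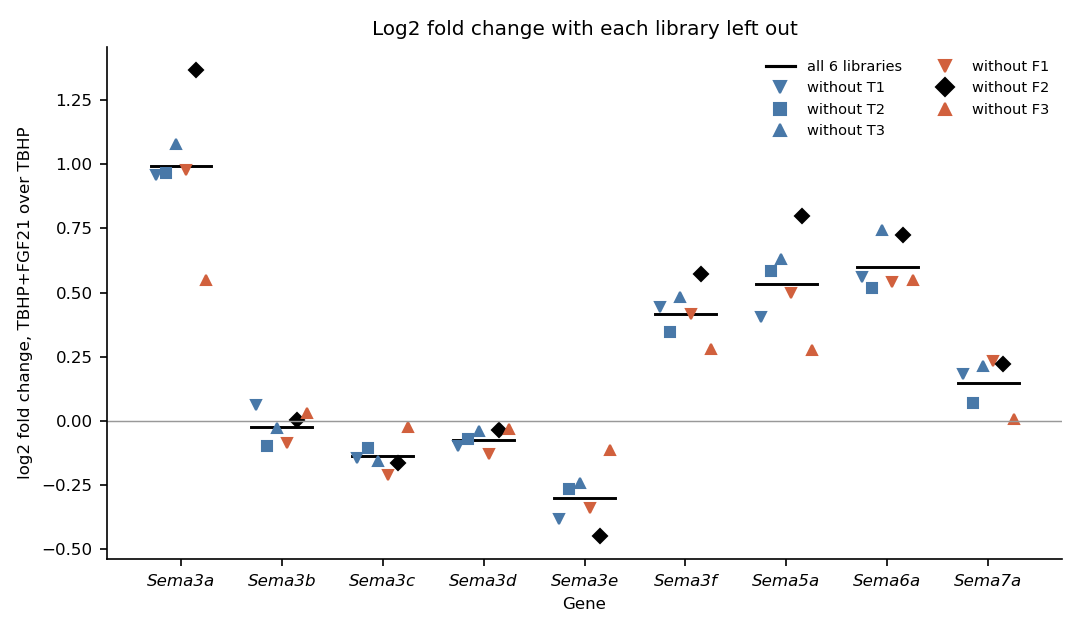
Log2FC of TBHP+FGF21 over TBHP (vertical axis) of the 9 tested members with all 6 libraries (line) and with each library left out (symbols). The symbols for F2 and F3 lie farthest apart for Sema3a, at 1.37 and 0.55, and the symbols of Sema6a stay between 0.52 and 0.74.

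Members differed in how closely they followed each other over the 6 libraries, which share their depth and scaling and in which F1 and F3 stood out. Pearson's r of log2 CPM was 0.96 between Sema3a and Sema5a, 0.95 between Sema3a and Sema3f, and 0.91 between Sema3f and Sema6a. The lowest of the 6 pairs among these 4 genes was 0.79, between Sema5a and Sema6a. Sema3c and Sema3e, which lie near each other on chromosome 4, had an r of 0.87. The other pairs described above by position were at -0.11 (Sema3a and Sema3d), 0.02 (Sema3b and Sema3f) and -0.83 (Sema3a and Sema3e). Sema3c and Sema7a had the lowest of all 36 pairs, -0.96. These values describe 6 points each, and the 4 genes were picked after their values had been seen.

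Among all tested genes, those whose log2 CPM was most like that of Sema6a over the 6 libraries were Fam168a (r = 0.995), Abhd15 (0.994), Aak1 (0.992), a kinase of clathrin-mediated endocytosis, Lrrk1 (0.988) and Limd1 (0.987). The least like were Rala (-0.996), a small GTPase of exocytosis, Rgcc (-0.996) and Zbtb8os (-0.994). Among semaphorins and receptors, Plxnb2 was nearest, with an r of 0.959 and rank 68 of 11426, followed by Nrp2 (0.951, rank 109). Of the other members, Sema3f was nearest, at 0.912 and rank 341. These values too describe 6 points each, and the extremes were taken from 11426 genes. The list with Sema6a was drawn up with the group differences of these libraries known. Any gene that was higher in F1 and F3 would thus have a high r, and nothing on shared regulation is read from it.

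The rest of the semaphorin family was not part of the list. Of 10 further semaphorins, Sema3g and Sema5b had too few reads to be tested. None of the 8 tested had an adjusted p under 0.05 by edgeR, and 2 had an unadjusted p under 0.05, both higher, beside 4.63% of all genes tested called higher. Sema6c, of the same class as Sema6a, was at 5.03, 4.13 and 3.23 CPM in the TBHP group, and at 5.40, 5.74 and 6.10 CPM in F1, F2 and F3. Its groups did not overlap, and here F2 was with its own group. edgeR gave a log2FC of 0.48 (SE 0.19) with an adjusted p of 0.553, and 0.50 without F2.

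Sema4b, a transmembrane semaphorin of class 4, was at 19.6, 18.0 and 24.0 CPM in the TBHP group, and at 26.4, 20.5 and 32.7 CPM in F1, F2 and F3. F1 and F3 were above the TBHP range and F2 within it, the order seen for Sema3f. edgeR gave a log2FC of 0.37 (SE 0.17) with an adjusted p of 0.553, 0.54 (adjusted p = 0.0265) without F2, and 0.20 without F3. Sema4g had a log2FC of 0.23, Sema6b of -0.29, Sema4f of -0.24 and Sema4a of -0.08, with adjusted p between 0.568 and 0.849 by edgeR. With single libraries left out, Sema4f ran from -0.73 (without F2) to -0.02 (without F3) and Sema6b from -0.57 (without F2) to -0.07 (without F1). The median of the 8 was 0.0031, 0.09 without F2.

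Semaphorins are received by plexins, neuropilins and integrins. Of 15 listed receptors, Plxnb3 had no read, Plxnc1 and Cd72 had too few, and 12 were tested. Nrp2, the co-receptor of Sema3f, was at 751, 748 and 842 CPM in the TBHP group, and at 927, 805 and 987 CPM in F1, F2 and F3. F2 was inside the TBHP range and F1 and F3 above it. For Nrp2, edgeR gave a log2FC of 0.22 (SE 0.11) with an adjusted p of 0.553, and 0.30 (adjusted p = 0.0868) without F2.

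Nrp1, the co-receptor of Sema3a, had between 29 and 76 reads in every library, against at least 13448 for Nrp2. It was at 2.90, 2.54 and 2.63 CPM in the TBHP group, and at 3.60, 1.91 and 1.26 CPM in F1, F2 and F3. F1 was above and F2 and F3 were below the TBHP range. edgeR gave a log2FC of -0.25 (SE 0.32) with an adjusted p of 0.785, and its sign changed without F3, to 0.05.

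Of the plexins, Plxnb2, a receptor of class 4 semaphorins, was at 619, 573 and 690 CPM in the TBHP group, and at 786, 651 and 818 CPM in F1, F2 and F3. F2 was inside the TBHP range and F1 and F3 above it. edgeR gave a log2FC of 0.26 (SE 0.11) with an adjusted p of 0.553, and 0.36 (adjusted p = 0.0482) without F2. Plxna3, a receptor that pairs with neuropilins, was at 28.1, 33.8 and 33.9 CPM in the TBHP group, and at 48.7, 31.2 and 47.3 CPM in F1, F2 and F3. F1 and F3 were again above the TBHP range, with a log2FC of 0.41 (SE 0.16) and an adjusted p of 0.553 by edgeR, and 0.59 (adjusted p = 0.0050) without F2.

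Plxnd1, the receptor of Sema3e, was at 9.61, 8.75 and 11.02 CPM in the TBHP group, and at 11.7, 11.7 and 12.8 CPM in F1, F2 and F3. Its groups did not overlap, and edgeR gave a log2FC of 0.30 (SE 0.14) with an adjusted p of 0.553. The groups of Plxna1 (0.22) and Plxna2 (0.68), both named after their values were seen, did not overlap either. Plxna2 had only 6 to 16 reads per library. The TBHP+FGF21 libraries were the higher ones for these 3 receptors, beside 4.9% of all genes tested. The other receptors with a lower mean were Itgb1, the integrin subunit through which Sema7a acts, at -0.19 (adjusted p = 0.568) and -0.11 without F3, and Plxna4, at -0.38 (adjusted p = 0.764, both by edgeR).

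Over the 12 tested receptors the median log2FC was 0.22, with 9 above and 3 below 0. At an unadjusted p under 0.05 there were 4, all higher (Plxna3, Plxnb2, Plxnd1 and Plxna1, the last named after its value was seen), against 8.92% of all genes tested in either direction, and no receptor had an adjusted p under 0.05 by edgeR. Without F2 there were 2, Plxna3 and Plxnb2, both higher, against 7.5% of all genes in either direction. The median was then 0.30.

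**Figure D4:**
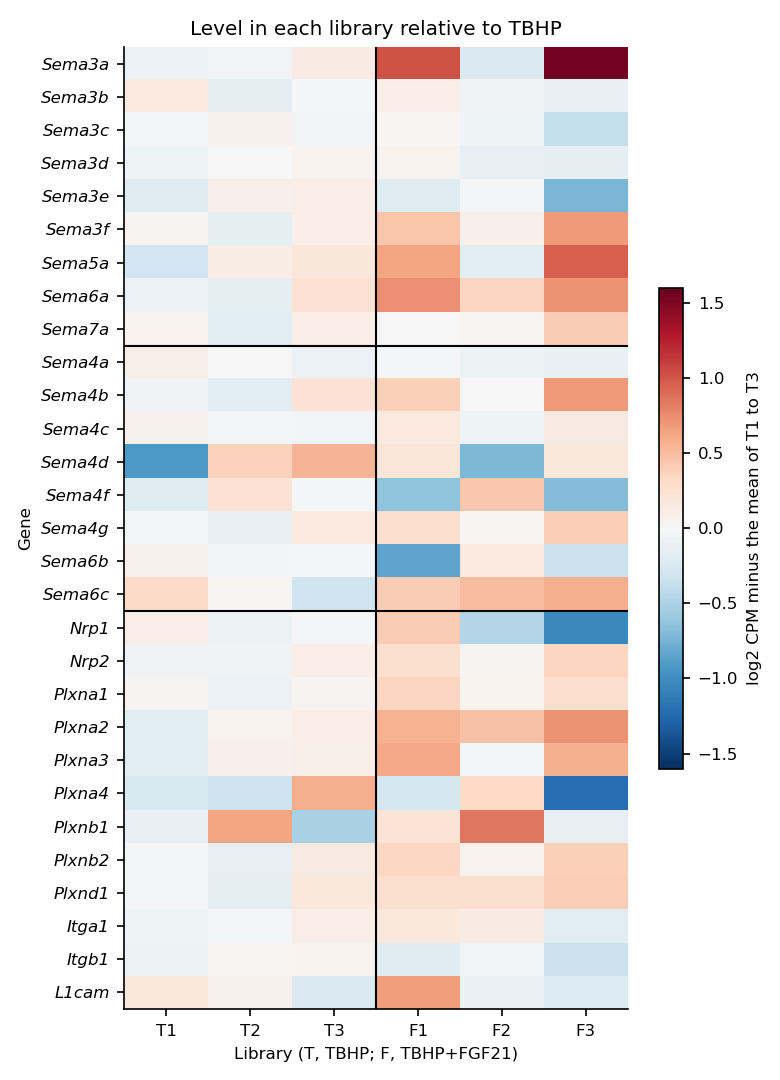
Log2 CPM of the 9 tested members, 8 other semaphorins and 12 receptors (rows) in the 6 libraries (columns), minus the mean of T1 to T3 for each gene. F1 and F3 are redder than F2 for Sema3a, Sema3f, Sema5a, Sema4b, Nrp2 and Plxna3, though only faintly for Nrp2 (0.25 in F1, 0.05 in F2 and 0.34 in F3).

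Below the receptors, 27 genes of semaphorin signalling were listed and 24 tested. Their median log2FC was -0.04, with 10 above and 14 below 0, and none had an adjusted p under 0.05 by edgeR. At an unadjusted p under 0.05 there were 1 higher, Micall2 (0.34), and 3 lower, namely Rnd1 (-0.63), the small GTPase that binds plexins, Mical1 (-0.28), the oxidase that takes actin filaments apart below plexin-A, and Fes (-0.49), a kinase of the Sema3a pathway, beside 4.63% of all genes called higher and 4.29% called lower. Micall2 was at 0.16 without F3. Rnd1 was at 4.36, 4.26 and 3.00 CPM in the TBHP group, and at 2.32, 2.92 and 2.27 CPM in F1, F2 and F3. The groups did not overlap for 2 genes of this list that were higher, Micall2 and Arhgef12. The same held for 3 that were lower, Rnd1, Mical1 and Fes, beside 4.9% and 5% of all genes tested. Arhgef12, which is bound by B-type plexins, and Farp1, which binds A-type plexins, had log2FCs of 0.21 each. Without F2, 2 genes of the list had an adjusted p under 0.05 by edgeR, both lower, namely Mical1 (-0.40) and, named after its value was seen, Dpysl3 (-0.69), against 3.72% of all genes called lower.

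Of 41 listed genes of the slit, netrin, repulsive guidance molecule and ephrin families, 21 were tested, with a median log2FC of 0.14 and 14 above 0. None had an adjusted p under 0.05 by edgeR, and at an unadjusted p under 0.05 there were 4 higher, namely Rgma (0.50), Slit3 (0.60), Epha4 (0.68) and, named after its value was seen, Ephb3 (0.29), and 1 lower, Epha2 (-0.27), beside 4.63% and 4.29% of all genes. Slit3 was at 0.25 without F1, and Epha2 at -0.17 without F3. The next among the lower genes were Ntn4 (-0.20) and Efna3 (-0.40). Epha4, a receptor of ephrins, was at 5.81, 6.26 and 7.36 CPM in the TBHP group, and at 12.3, 6.13 and 12.8 CPM in F1, F2 and F3. F1 and F3 were above the TBHP group and F2 within its range, as for Sema3f and Sema5a. Without F2, 5 genes of these families had an adjusted p under 0.05 by edgeR, Rgma, Slit3 and Epha4 and, named after its value was seen, Efna5 higher, and Epha2 lower, against 7.5% of all genes in either direction.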

How the data were processed

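RNA-seq was performed on 6 libraries of rat NPCs, and the authors deposited raw read counts for each library (per Ensembl identifier, unstranded and for each strand) and a combined table of counts per gene symbol. The submitters' processing notes name STAR and featureCounts. Versions, genome build and annotation are not given in the sources used here. In the deposited combined table, 22 rows end in a fraction, so its class is that of estimated counts, and these rows were rounded up. Libraries were grouped by their titles. The study's methods speak of independent biological replicates for its experiments in general. Whether each library was a separate culture or animal is not given in the sources used here, so p-values measure only the spread between these libraries, which may be technical.

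The combined counts were tested with edgeR 4.0.16 in R 4.3.3 (TMM, filterByExpr with a minimum count of 10 and a minimum total of 15, glmQLFit and glmQLFTest on the group, adjusted by Benjamini-Hochberg over the 11426 genes left). An SE is the log2FC over the root of edgeR's F. Log2 CPM used a prior count of 2. Identifiers of the per-sample files were matched with 13205 symbols where all 6 counts were the same. Reads that were unmapped, multimapping, outside genes or ambiguous (1.24% to 1.40%, 6.27% to 7.02%, 9.13% to 10.4% and 1.72% to 2.09% of the reads in the per-sample files) stayed out of the tests. No pair of libraries agreed within sampling noise (chi-square per gene of at least 6.94). The edgeR, limma-voom and DESeq2 fits of all 6 libraries were tested on simulated counts. The other alternatives and the fits with a library left out were not.

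The members and lists were chosen with earlier results of these data known. The genes named were all members, the 3 with the smallest p in each direction of every other list, both neuropilins, the plexin with the highest CPM, and the 5 genes most and 3 least like Sema6a. Alternatives were the per-sample counts, DESeq2 1.42.0 size factors and Wald test, library size alone, limma-voom (limma 3.58.1), no filter, the replicate block and leaving out each library.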

Additional observations from a re-analysis of the deposited data

How the results depend on the processing

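The count of genes called at an adjusted p under 0.05, 1 with edgeR, was 0 with the per-sample counts (unstranded, strand column 3 or strand column 4) and with limma-voom (against 956 to 1082 genes at an unadjusted p under 0.05), 4 with the DESeq2 Wald test and 5 with no filter. With no filter, 146 genes passed the study's threshold, and the median log2FC was 0.094 for the other semaphorins and -0.0021 for the other guidance families. With strand column 3 these medians were 0.13 and 0.035, Sema6b turned to 0.13 and Nrp1 to 0.27. The 9 tested members kept their direction under all these alternatives, except Sema3b, at 0.0011 with strand column 4. The replicate numbers were not shown to pair the libraries, since same-numbered libraries had correlations of deviations of -0.12, 0.21 and 0.15, and 3 of 6 libraries correlated best with their own number. With the replicate block, 2 genes had an adjusted p under 0.05 and 1599 an unadjusted p under 0.05, and no list had a call.

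With 1 library left out at a time, the number of genes called ran from 0 (against 337 to 1771 at an unadjusted p under 0.05) to 867, and that at the study's threshold from 51 to 200. The calls ran from 0 to 4 for the members, from 0 to 1 for the other semaphorins, from 0 to 2 for the receptors, from 0 to 2 for signalling and from 0 to 5 for the other guidance families, the highest number each time without F2. Medians of the log2FC ran from 0.030 to 0.24 for the members, from 0.18 to 0.30 for the receptors, from -0.084 to 0.095 for the other semaphorins, from -0.053 to 0.0036 for signalling and from 0.072 to 0.19 for the other guidance families. The log2FC of Plxna4 ran from -0.84 to 0.023 and that of Nrp1 from -0.75 to 0.047. Sema3b alone among the members changed sign, between -0.10 and 0.06. The cause of these changes was not tested. Depth limits Sema6d, with 29 reads in all libraries, and Sema3a, with 254.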
